A study of Drosophila melanogaster with 25 samples.

Results

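The genes described here encode the proteins of the small (40S) subunit of the cytoplasmic ribosome, and they were followed gene by gene in wing imaginal discs of Drosophila melanogaster larvae of 6 genotypes. Members were all genes whose FlyBase symbol begins with RpS and a digit, together with sta, the gene for ribosomal protein SA. The rule found 39 symbols, of which 37 had values among the 13955 genes of the deposited tables, and RpS10b and RpS12 were not analysed here. RNA was sequenced from samples of 50 discs, dissected from wandering L3 larvae (the last larval stage) grown at 25 °C, and the question of the study was how discs of cells that lose in cell competition differ in gene expression from wild type (WT) discs. RpS3 discs (2 libraries) had the genotype FRT82B, RpS3[Plac92], ubi-GFP/+, in which the chromosome with the mutated gene also carries an FRT site and a GFP expressed in all cells. RpS3* discs (2 libraries) were FRT82B, RpS3*/+ and so heterozygous for another allele of the same gene. RpS15 discs (2 libraries) were FRT42D, M(2)53[1]/+, heterozygous for a mutation of RpS15. mahj discs (2 libraries) were hs-FLP, stauGFP/+; FRT42D, mahj/FRT42D, mahj, which is homozygous for a mutation of mahj, a gene that does not encode a ribosomal protein. RpS3+puc discs (3 libraries) were esg-Gal4, UAS-GFP/UAS-Puc together with FRT82, RpS3[Plac92], ubi-GFP/+, so they overexpressed puc, a phosphatase that restrains JNK signalling, where the esg driver is active. RpS3 discs lack esg-Gal4 and UAS-GFP, so effects of puc and of those transgenes cannot be told apart. The 8 WT libraries came from yw flies (WT1 to WT4, WT7 and WT8) or from FRT82, ubi-GFP flies (WT5 and WT6).

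The 40S subunit binds the messenger RNA and decodes it, and each of its proteins is normally present once in every subunit, so that their genes are expressed at closely matched levels. In flies, loss of 1 copy of many ribosomal protein genes gives the Minute phenotype, with slow development and short, thin bristles, and patches of Minute cells are often eliminated when WT cells surround them. The paper reports that cells with the RpS3 alleles or the mahj mutation lose against WT cells. It reports that cells with the RpS15 mutation are Minute but do not lose. RpS3 lies in the head of the subunit near the entry of the mRNA channel, and RpS15 also lies in the head. No sequences are shown, since a genome of the files' build was not used here.

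The values were FPKM, that is, fragments scaled to transcript length and to the size of the library. Summed over all genes they ranged from 564362 FPKM (the first RpS15 library) to 743721 FPKM (the first RpS3+puc library). Comparisons between libraries depend on how the libraries are scaled. Of the 37 members with values, 32 were abundant, with a WT mean of at least 100 FPKM. In WT discs these 32 had means of 329 FPKM (RpS15Ab) to 4348 FPKM (RpS27A, which encodes a ribosomal protein fused to ubiquitin), with a median over genes of 2836 FPKM, and 30 of them lay within a factor of 2 of that median. The coefficient of variation among the 8 WT libraries was 5.91% to 18.8%, with a median of 14.1%. Every abundant member was covered by at least 2804 reads in every library, so counting error was small beside the spread between libraries. The other 5 members were at the bottom of the range, with WT means of 2.94 FPKM for RpS19b, 0.958 FPKM for RpS5b, 0.481 FPKM for RpS10a, 0.176 FPKM for RpS28-like and 0.103 FPKM for RpS28a.

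The members share features that the rule did not use. Their genes lie on 6 chromosome arms (9 on X, 6 on 2L, 7 on 2R, 4 on 3L, 12 on 3R and 1 on 4), and 12 of the 32 abundant members carry annotated snoRNA genes within them. Their transcripts are short: the median annotated length of the abundant members was 716 bp (494 to 1086 bp), against 1898 bp for all genes tested. For 5 abundant members the annotation (BDGP6.54) has another protein-coding gene that overlaps them, and the largest of these partners, Ip259 on the strand of RpS27A, had 209 to 357 FPKM, while RpS27A had at least 2377 FPKM in every library. RpS14a and RpS14b are adjacent, near-identical copies on X, so reads may have been split between them in either direction.

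The 19 libraries held 12122876 to 16970372 reads each, as implied by the steps between low FPKM values. Of 10 wing disc markers 8 had values, and their summed level was 334 to 589 FPKM in all libraries. Summed fat body markers (6 genes) ranged from 119 to 140 FPKM in RpS3, from 17.6 to 23.3 FPKM in RpS3*, from 109 to 641 FPKM in RpS15, from 61.4 to 1446 FPKM in mahj and from 4.85 to 8.98 FPKM in RpS3+puc libraries, against 34.9 to 318 FPKM in WT libraries. Summed eye disc markers (3 genes) were 15.2 to 26.5 FPKM in RpS3, 26.0 to 35.8 FPKM in RpS3* and 8.51 to 10.7 FPKM in RpS3+puc libraries, against 8.09 to 10.2 FPKM in WT libraries. The higher sums with the RpS3 alleles came from toy alone, which averaged 13.1 FPKM in RpS3, 23.2 FPKM in RpS3* and 1.54 FPKM in WT. The means in RpS3, RpS3* and WT were 7.53, 7.50 and 7.70 FPKM for so, and 0.214, 0.254 and 0.223 FPKM for ey. In RpS15 libraries 4 marker lists lay outside the WT range: wing disc (557 to 589 FPKM, against 462 to 538 FPKM in WT), muscle (27.7 to 36.1 FPKM, against 38.8 to 64.6 FPKM), trachea (1 gene with values, 22.6 to 26.1 FPKM, against 15.9 to 18.1 FPKM) and eye disc (7.42 to 7.67 FPKM). In RpS3+puc libraries wing disc markers (334 to 443 FPKM) and muscle markers (22.4 to 36.9 FPKM) were also below all WT libraries. In mahj libraries the summed myoblast markers (3 genes, 32.5 to 38.0 FPKM) were below all WT libraries (38.9 to 61.1 FPKM). The part of these markers in the results below was not tested. WT6 or WT7 had the highest WT value of 31 of the 32 abundant members. The share over all genes was not worked out. WT6 and WT7 also had the largest summed FPKM of all genes in WT (687493 and 682163 FPKM), so this is not shown to be particular to the members. The RpS15 and mahj libraries, WT1 and WT2 were each sequenced in 2 runs that were pooled, so RpS15 and mahj discs were also set against WT1 and WT2 alone. Nothing in the labels says that libraries of a genotype came from separate cultures, so the p-values measure the spread between these samples. In whole discs, fewer cells of a type and less RNA per cell cannot be told apart.

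The mutated genes were examined first. RpS3 (chromosome 3R, 23358812 to 23360207, plus strand, in BDGP6.54) had 1344 and 1314 FPKM in RpS3 discs, 1262 and 1296 FPKM in RpS3* discs and 1366, 1271 and 1264 FPKM in RpS3+puc discs, against a lowest value of 2057, a median of 2355 and a highest value of 3023 FPKM in WT discs. RpS3 had 1630 and 1648 FPKM in RpS15 discs and 2627 and 2569 FPKM in mahj discs. All 7 libraries with an RpS3 mutation lay below every other library, those of mahj within the WT range and those of RpS15 in between. RpS3 fell by 0.88 ± 0.13 in RpS3 discs (log2 fold change ± SE, adjusted p = 0.0011), by 0.93 ± 0.13 in RpS3* discs (adjusted p = 0.00043) and by 0.91 ± 0.11 in RpS3+puc discs (adjusted p = 3.9e-05), all against WT. It fell by 0.57 ± 0.13 in RpS15 discs (adjusted p = 0.015), a call lost with either RpS15 library left out, and did not pass the test in mahj discs, where the change was 0.09 ± 0.13 (adjusted p = 0.74). Here and below, fold changes are on the scale of log2(FPKM + 1), and adjusted p-values come from limma with Benjamini-Hochberg adjustment over all genes tested and a threshold of 0.1.

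RpS15 (chromosome 2R, 16570112 to 16571230, minus strand, in BDGP6.54) had 1008 and 1055 FPKM in RpS15 discs, against a lowest value of 2611, a median of 3015 and a highest value of 4102 FPKM in WT discs. It had 3109 and 2988 FPKM in RpS3 discs, 2932 and 3090 FPKM in RpS3* discs, 3050 and 2990 FPKM in mahj discs and 4505, 3700 and 3659 FPKM in RpS3+puc discs. Both RpS15 libraries were below every other library, and no other genotype had a value under the lowest in WT. RpS15 fell by 1.60 ± 0.15 in RpS15 discs (adjusted p = 4.1e-05), and its mean was 32.7% of that in WT, which was the largest fall of any member in any comparison. The change of RpS15 was −0.03 ± 0.15 in RpS3 discs (adjusted p = 0.90), −0.05 ± 0.15 in RpS3* discs (adjusted p = 0.83) and −0.05 ± 0.15 in mahj discs (adjusted p = 0.89), none of which passed the test. In RpS3+puc discs RpS15 was higher than in WT by 0.33 ± 0.13 (adjusted p = 0.042), with libraries that overlapped those of WT. It was higher than in RpS3 discs by 0.37 ± 0.10 (adjusted p = 0.024).

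**Figure D1:**
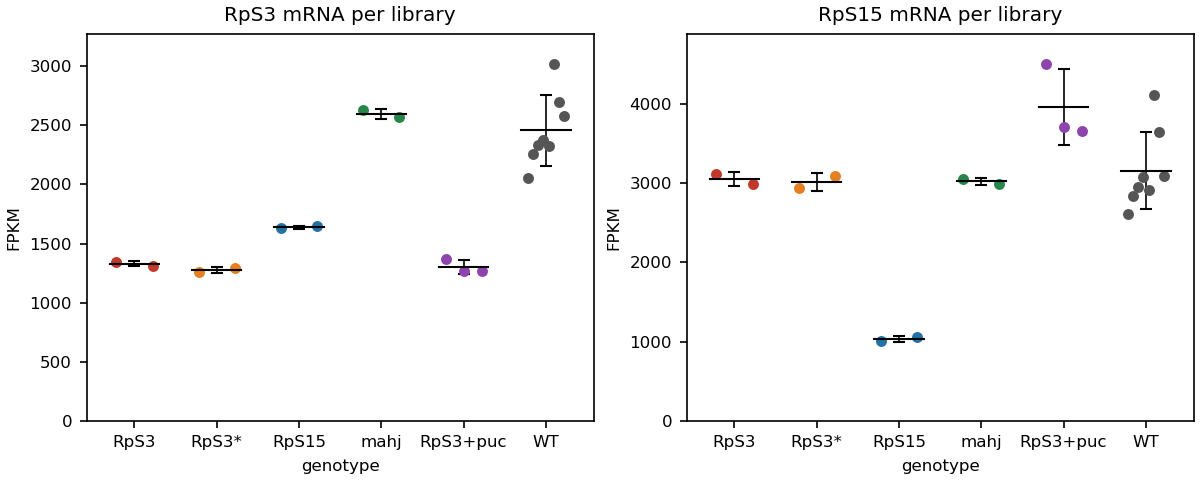
FPKM of RpS3 (left) and RpS15 (right) in each library, by genotype. Points are libraries, horizontal lines are means and error bars are SD (n = 2, 2, 2, 2, 3 and 8). RpS3 lies between 1262 and 1366 FPKM in the 7 libraries with an RpS3 mutation, and RpS15 at 1008 and 1055 FPKM in the 2 RpS15 libraries.

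A ratio within a library does not depend on how libraries were scaled, so each mutated gene was also set against the median of the 30 other abundant members of the same library. RpS3 stood at 48.9% ± 0.188 of that median in RpS3 discs, 45.1% ± 1.19 in RpS3* discs and 42.5% ± 1.53 in RpS3+puc discs, against 88.6% ± 1.86 in WT discs (SD, n = 2, 2, 3 and 8). The ratio was 85.6% ± 0.108 in RpS15 discs, just below the lowest of the WT libraries (85.9%), and 94.6% ± 1.65 in mahj discs, above the highest (91.0%). RpS3 mRNA in RpS15 discs was thus lower than in WT by about as much as the other members. RpS15 stood at 53.9% ± 1.23 of the median of the other members in RpS15 discs, 112% ± 1.79 in RpS3 discs, 106% ± 0.887 in RpS3* discs, 110% ± 2.10 in mahj discs and 129% ± 5.41 in RpS3+puc discs, against 113% ± 5.05 in WT discs. These ratios are descriptions with no test.

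**Figure D2:**
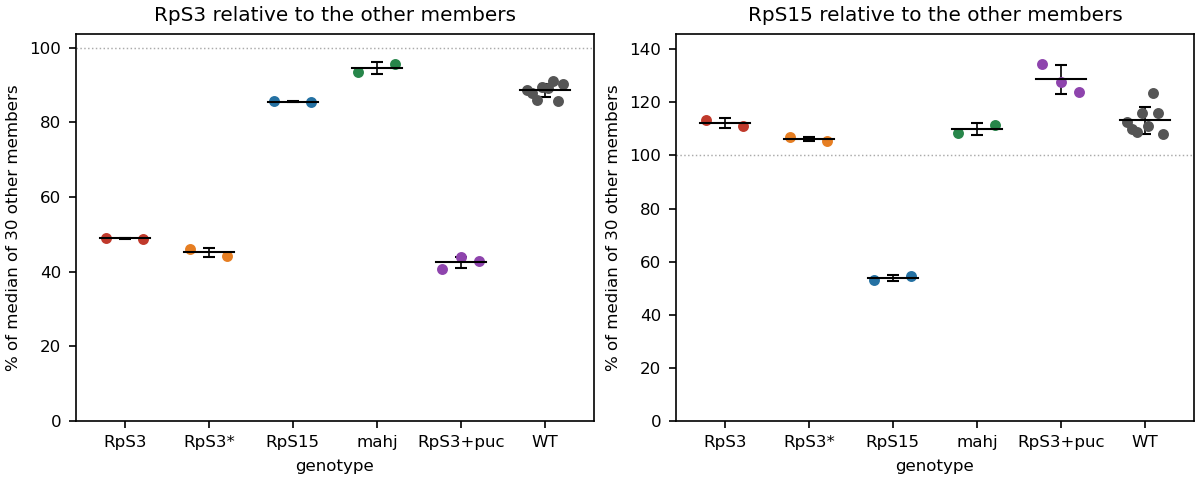
RpS3 (left) and RpS15 (right) as a percentage of the median FPKM of the 30 other abundant members in the same library, by genotype. Points are libraries, horizontal lines are means and error bars are SD, and the dotted lines mark 100%. The ratio of RpS3 is 42.5% to 48.9% on average in the 3 genotypes with an RpS3 mutation, and that of RpS15 is 53.9% in RpS15 discs.

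The genes next to the mutated ones were also looked at. None of the 10 nearest neighbours of RpS3 (5 tested in RpS3 discs, 4 in RpS3* discs) and none of those of RpS15 (7 tested in RpS15 discs) fell. In RpS3, RpS3* and RpS15 discs 1, 1 and 2 of them rose. Of all genes tested, 4.17%, 6.33% and 8.99% fell and 14.4%, 16.5% and 12.1% rose in these comparisons. With so few neighbours tested, the counts do not set the neighbours apart from other genes. Next to RpS3, CG42827 averaged 4.03 FPKM in RpS3 discs and 0.0613 FPKM in WT discs (log2 fold change 2.25, adjusted p = 1.4e-06), and it was at 0 FPKM in RpS3* discs. ATPsynCF6 averaged 366 FPKM in RpS3* discs and 259 FPKM in WT discs (0.51, adjusted p = 0.053). Next to RpS15, DAT averaged 101 FPKM in RpS15 discs and 0.128 FPKM in WT discs (adjusted p = 6.6e-11). CG4945, which lies on the opposite strand and overlaps the end of RpS15, averaged 15.5 FPKM in RpS15 discs and 0.198 FPKM in WT discs (log2 fold change 3.78, adjusted p = 2.6e-09). Where CG4945 and RpS15 overlap their reads cannot be told apart without strand, although the level of CG4945 was far below that of RpS15.

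Among the other members few passed the test in RpS3 and RpS3* discs. In RpS3 discs 2 of 34 members tested fell and 0 rose (18.6% of all 8053 genes tested passed the test, 4.17% as falls and 14.4% as rises), namely RpS3 itself and RpS27A. In RpS3* discs 3 of 34 fell and 0 rose (22.8% of all 8067 genes tested passed, 6.33% as falls and 16.5% as rises): RpS3, RpS27A and RpS9. The shares of members that fell, other than the mutated gene, were thus close to the background. The median change of the members was 0.01 in RpS3 discs and 0.04 in RpS3* discs, beside 0.09 and 0.07 for all genes tested. The count of rises depended on the WT libraries: without WT6 and WT7, a choice made after seeing the data, 3 members rose in RpS3 discs and 6 in RpS3* discs. With a trend over transcript length taken out of the fold changes, 10 fell in RpS3 discs and 11 in RpS3* discs, and 0 rose in either. Shares of all genes tested were worked out for the main setting only. Counts of members under other settings, here and below, therefore have no background beside them and describe only how the counts moved.

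RpS27A had 3228 and 3087 FPKM in RpS3 discs and 2885 and 2962 FPKM in RpS3* discs, against a lowest value of 3859, a median of 4190 and a highest value of 5527 FPKM in WT discs. All 4 libraries of the RpS3 alleles were below all 8 WT libraries, which the choice of genes to name required. RpS27A fell by 0.45 ± 0.13 in RpS3 discs (adjusted p = 0.042) and by 0.56 ± 0.13 in RpS3* discs (adjusted p = 0.012), but either call was lost when the genotype was left with 1 library. RpS9, a protein of the body of the subunit that binds the 18S rRNA early in assembly, had 2160 and 2251 FPKM in RpS3* discs and 2312 and 2297 FPKM in RpS3 discs, against a lowest value of 2331, a median of 2726 and a highest value of 3468 FPKM in WT discs. Again the 4 libraries were below all WT libraries, by a narrow margin in RpS3 discs. The choice of genes to name required this in RpS3* discs only. RpS9 fell by 0.37 ± 0.14 in RpS3* discs (adjusted p = 0.099), a call at the edge of the threshold that was lost with no filter on low values, at a threshold of 0.05, with yw WT libraries only, with FRT82 ubi-GFP WT libraries only, with either RpS3* library left out and without WT2, WT3, WT4, WT5 or WT8 in turn, whereas its change of −0.31 ± 0.14 in RpS3 discs did not pass (adjusted p = 0.17). Rack1, a scaffold protein bound to the head of the 40S subunit close to RpS3 and not a member by its symbol, fell by 0.52 ± 0.14 in RpS3 discs (adjusted p = 0.037) and by 0.47 ± 0.14 in RpS3* discs (adjusted p = 0.046).

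In RpS15 discs, relative to WT, most members were lower. Of 34 members tested 29 fell and 0 rose, against 8.99% of falls and 12.1% of rises among all 8134 genes tested, of which 21.1% passed the test. The median change of the members was −0.58, beside 0.03 for all genes tested, so that the typical member stood at 67.0% of its WT level. The 5 that did not pass the test were RpS3A (−0.07 ± 0.10), RpS4 (−0.17 ± 0.12), RpS15Ab (−0.21 ± 0.11), RpS19b (−0.23 ± 0.15) and RpS5b (−0.23 ± 0.19). For 28 of the 32 abundant members both RpS15 libraries were below all libraries of all other genotypes (8.50% of all genes tested), the exceptions being RpS3, RpS4, RpS3A and RpS15Ab. With either RpS15 library left out, 4 or 5 members still passed, all among the 29, and the median change was −0.55 or −0.61, so the number of calls rested on having both libraries while the size of the change did not. With a trend over transcript length taken out of the fold changes, 21 members fell, 0 rose and the median was −0.34. Against WT1 and WT2 alone, which had as many runs, 28 of 33 members tested fell with a median of −0.40, and RpS15 fell by 1.40 ± 0.08 (adjusted p = 0.00013).

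The largest falls in RpS15 discs after that of RpS15 itself were those of RpS9 and RpS27A, the same genes that passed the test in RpS3* discs. RpS9 had 1401 and 1450 FPKM in RpS15 discs, against a lowest value of 2331 FPKM in WT discs, and it fell by 1.00 ± 0.14 (adjusted p = 0.0011). RpS27A had 2413 and 2377 FPKM in RpS15 discs, against a lowest value of 3859 FPKM in WT discs, and it fell by 0.85 ± 0.13 (adjusted p = 0.0014). For both genes the RpS15 and WT libraries were far from overlapping, where the choice of genes to name required no overlap. These comparisons share the WT libraries with those of the RpS3 alleles, so they are not independent of them. RpS3A, a protein of the body of the subunit near the mRNA exit, had 3208 and 3119 FPKM in RpS15 discs, against a lowest value of 2989, a median of 3343 and a highest value of 3664 FPKM in WT discs, and its RpS15 libraries lay inside the WT range. Rack1 fell by 0.87 ± 0.14 in RpS15 discs (adjusted p = 0.0023).

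The medians in RpS15 discs were close for members grouped by their place in the subunit or by the snoRNA genes they carry. Leaving out RpS3 and RpS15, all 10 abundant members of the head fell, with a median of −0.57 (−0.85 to −0.42), and 17 of the 20 of the body and platform fell, with a median of −0.58 (from RpS9, given above, to RpS3A at −0.07). The 12 snoRNA hosts had a median of −0.56 with 10 falls, and the other 18 a median of −0.61 with 17 falls. The grouping by place was made after the values were seen and is a description.

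**Figure D3:**
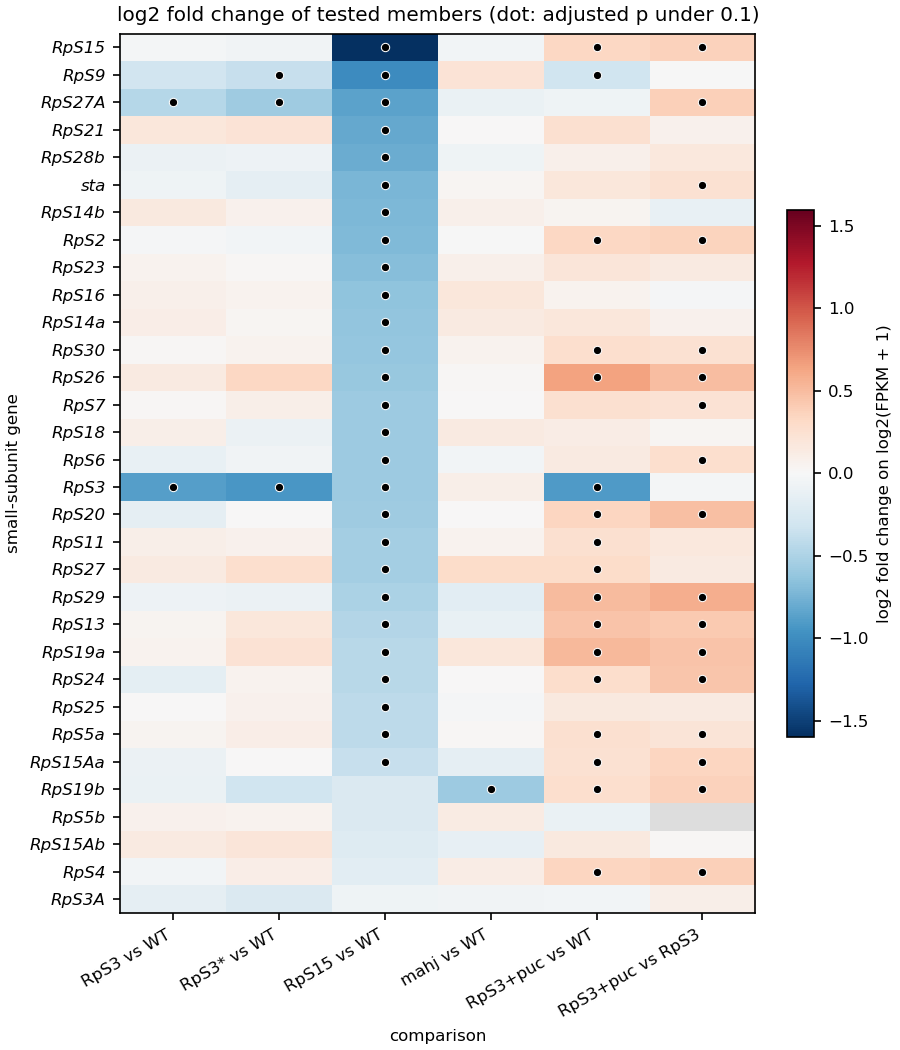
Log2 fold change of 32 of the 34 members tested (rows, ordered by the change in RpS15 discs) in 6 comparisons (columns), on the scale of log2(FPKM + 1). Blue is lower and red higher in the genotype named first, dots mark an adjusted p under 0.1, and grey marks a gene not tested. The RpS15 column is blue for all 32 members drawn, with 27 dots, while the RpS3 and RpS3* columns hold 2 and 3 dots.

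The difference between the RpS15 mutation and the RpS3 mutations was tested directly, with the 2 RpS15 libraries against the mean of the RpS3 and RpS3* groups. The RpS15 libraries were sequenced in 2 runs and those of the alleles in 1. Effects of genotype and of the number of runs therefore cannot be told apart here. Of 34 members 30 were lower in RpS15 discs and 2 were higher, with a median of −0.61 beside −0.06 for all genes. The background was high here, since 69.6% of all 8043 genes tested passed the test, 40.5% as lower and 29.1% as higher. With the trend over transcript length taken out, 18 members were lower, 5 were higher and the median was −0.10.

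Individual members nevertheless differed widely in this comparison. RpS21, a protein of the body of the subunit, had 1257 and 1213 FPKM in RpS15 discs, against 2447 and 2463 FPKM in RpS3 discs and 2449 and 2617 FPKM in RpS3* discs. RpS26, which lies near the mRNA exit channel, had 1200 and 1222 FPKM in RpS15 discs, against 2097 and 1997 FPKM in RpS3 discs and 2193 and 2443 FPKM in RpS3* discs. No library of RpS15 overlapped with those of the alleles for either gene, which the choice of genes to name required. RpS21 was lower by −1.01 ± 0.04 on the log2 scale (adjusted p = 4.7e-07) and RpS26 by −0.84 ± 0.05 (adjusted p = 3.0e-06), both behind RpS15 at −1.55 ± 0.04 (adjusted p = 5.6e-08). The 2 members that were higher in RpS15 discs than with the RpS3 alleles were RpS3 (0.33 ± 0.04, adjusted p = 0.00012), whose own gene the alleles mutate, and RpS3A (0.12 ± 0.04, adjusted p = 0.020). RpS3A had 2980 and 3036 FPKM in RpS3 discs and 2809 and 2845 FPKM in RpS3* discs, below both RpS15 values given above, but its call was lost with all 19 libraries in a single fit and without the first RpS15 library.

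In mahj discs the members were close to WT. Of 34 tested 1 fell and 0 rose, while 16.0% of all 8145 genes tested passed the test (6.70% as falls and 9.33% as rises), and the median change was 0.01 beside −0.01 for all genes. The member that fell was RpS19b, a weakly expressed copy of RpS19, with 1.69 and 1.56 FPKM in mahj discs, against a lowest value of 2.45, a median of 2.92 and a highest value of 3.51 FPKM in WT discs. Both mahj libraries were below all WT libraries, and RpS19b fell by 0.58 ± 0.13 (adjusted p = 0.0092), a call lost with either mahj library left out. The abundant copy RpS19a changed by 0.18 ± 0.16 and did not pass (adjusted p = 0.56). The count depended on the choice of WT libraries: against WT1 and WT2 alone, the WT libraries that were also sequenced in 2 runs, 15 members rose and 1 fell, with a median of 0.22. With the length trend removed 5 rose and 1 fell. No share or median of all genes is given beside these values, so they are not shown to be particular to the members.

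Compared directly with the RpS3 alleles, mahj discs were higher for 9 of 34 members and lower for 4, where 50.1% of all 8018 genes tested passed the test (15.2% as higher, 34.9% as lower). The mahj libraries were sequenced in 2 runs and those of the alleles in 1, so genotype and number of runs cannot be told apart. The 3 largest were RpS3 at 0.99 ± 0.04 (adjusted p = 6.7e-06), RpS9 at 0.56 ± 0.04 (adjusted p = 6.2e-05) and RpS27A at 0.40 ± 0.04 (adjusted p = 0.00040). RpS9 had 3322 and 3329 FPKM and RpS27A 4080 and 3919 FPKM in mahj discs, above all 4 values of the alleles given above. Thus the genes that were low in RpS3* discs were those that stood highest in mahj discs relative to the alleles, in comparisons that share the allele libraries. RpS15Ab was lower by −0.30 ± 0.05, with 293 and 305 FPKM in mahj discs, against 359 and 367 FPKM in RpS3 discs and 368 and 383 FPKM in RpS3* discs (adjusted p = 0.0021). RpS13, a protein of the body of the subunit, was lower by −0.22 ± 0.05 (adjusted p = 0.0077), with 2872 and 2738 FPKM in mahj discs, against 3194 and 3066 FPKM in RpS3 discs and 3297 and 3565 FPKM in RpS3* discs. RpS26 was lower by −0.22 ± 0.05 (adjusted p = 0.015), with 1916 and 1823 FPKM in mahj discs. None of these libraries overlapped with the alleles, which the choice of genes to name required. The split depended on scaling, with 17 higher and 2 lower after median-of-ratios scaling and 29 higher and 0 lower after removal of the length trend, where RpS15Ab, RpS13 and RpS26 turned to changes of 0.001, 0.11 and 0.02.

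Overexpression of puc in RpS3 discs went with higher levels of many members. Of 33 tested 18 rose and 1 fell relative to RpS3 discs, with a median change of 0.23 beside −0.02 for all genes, where 46.6% of all 7883 genes tested passed the test, 21.5% as rises and 25.1% as falls. RpS29, a zinc-binding protein of the head, had 4992, 4361 and 4414 FPKM in RpS3+puc discs, against 3040 and 3070 FPKM in RpS3 discs. RpS26 had 3223, 2743 and 2728 FPKM in RpS3+puc discs, against 2097 and 1997 FPKM in RpS3 discs. RpS20, a protein of the head, had 3539, 2819 and 2882 FPKM in RpS3+puc discs, against 2289 and 2105 FPKM in RpS3 discs. For all 3 genes every RpS3+puc library was above both RpS3 libraries, which the choice of genes to name required, and the first RpS3+puc library was the highest. RpS29 rose by 0.58 ± 0.08 (adjusted p = 0.0027), RpS26 by 0.50 ± 0.09 (adjusted p = 0.0059) and RpS20 by 0.48 ± 0.11 (adjusted p = 0.011).

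The mutated gene itself did not follow. RpS3 changed by −0.03 ± 0.07 between RpS3+puc and RpS3 discs (adjusted p = 0.76). RpS9 (−0.01 ± 0.08) and RpS16 (−0.02 ± 0.09), a protein of the head, also did not pass the test, whereas RpS27A rose by 0.38 ± 0.09 (adjusted p = 0.015). Rack1 rose by 0.43 ± 0.08 (adjusted p = 0.0072). The count rested on the RpS3 libraries, since 9 members passed without the first of them and 3 without the other. It also depended on transcript length: with the length trend removed, 14 members rose, 13 fell and the median was 0.01. Summed fat body markers were 4.85 to 8.98 FPKM in RpS3+puc libraries and 119 to 140 FPKM in RpS3 libraries, and their part in these changes was not tested.

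Relative to WT, RpS3+puc discs had 15 members that rose and 2 that fell of 34 tested, with a median of 0.25 beside 0.08 for all genes, where 62.3% of all 8094 genes tested passed the test (37.4% as rises, 24.9% as falls). The share of members that rose was near the background. RpS26 rose by 0.64 ± 0.15 (adjusted p = 0.0029), RpS19a, a protein of the head, by 0.51 ± 0.14 (adjusted p = 0.0068) and RpS29 by 0.50 ± 0.11 (adjusted p = 0.0028). RpS19a had 2640, 2213 and 2229 FPKM in RpS3+puc discs, against a lowest value of 1304, a median of 1560 and a highest value of 2138 FPKM in WT discs. The highest WT value was 2467 FPKM for RpS26 and 4245 FPKM for RpS29, so for these 3 genes all RpS3+puc libraries were above all WT libraries, which the choice of genes to name required. The falls were RpS3 and RpS9, with RpS9 lower by −0.32 ± 0.12 (adjusted p = 0.037) and libraries that overlapped those of WT. After removal of the length trend 1 member rose and 23 fell. Without the first RpS3+puc library 8 members passed, and without the last 11. Without WT6 and WT7, 25 rose and 2 fell.

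Several members exist as pairs of copies, and in most of them a single copy made nearly all of the mRNA. RpS5b, RpS19b, RpS28a and RpS28-like, whose partners RpS5a, RpS19a and RpS28b are abundant, were at most 0.230% of the level of the partner in every library. RpS28a was at 0 FPKM in 12 of the 19 libraries and RpS28-like in 8. RpS15Ab, in contrast, had 276 to 394 FPKM, which was 9.50% to 13.8% of RpS15Aa. RpS14b had 61.7% to 72.6% of the level of RpS14a, the only pair in which both copies were abundant and of like level. The ratio of RpS14b to RpS14a was 71.2% ± 1.32 in RpS3 discs, 70.7% ± 1.92 in RpS3* discs, 65.2% ± 0.362 in RpS15 discs, 66.1% ± 0.820 in mahj discs and 62.8% ± 0.931 in RpS3+puc discs, against 69.1% ± 2.96 in WT discs (SD, n as above).

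Summed over all members, small-subunit genes made up 12.6% ± 0.0986 of the FPKM of all genes in RpS3 discs, 12.6% ± 0.322 in RpS3* discs, 9.80% ± 0.148 in RpS15 discs, 13.7% ± 0.133 in mahj discs and 13.6% ± 0.503 in RpS3+puc discs, against 13.1% ± 1.08 in WT discs. Only the RpS15 libraries, at 9.70% and 9.91%, were outside the WT range of 11.8% to 15.1%. The genes of the large (60S) subunit moved with them. The summed FPKM of large-subunit genes was 1.40 to 1.53 times that of small-subunit genes in every library, with 1.50 ± 0.0123 in RpS15 discs and 1.45 ± 0.0405 in WT discs.

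**Figure D4:**
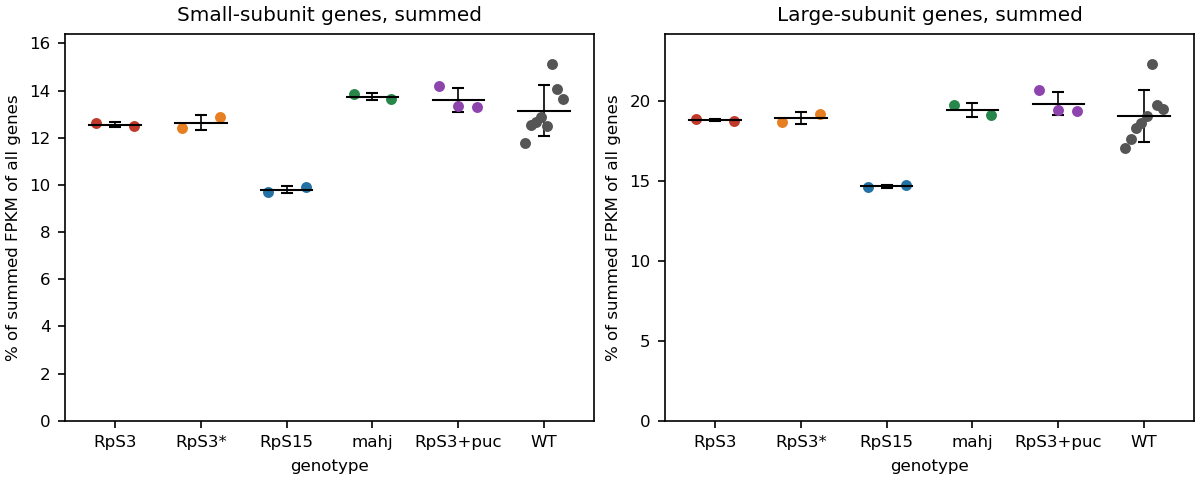
Share of the summed FPKM of all genes taken by small-subunit genes (left) and by large-subunit genes (right) in each library, by genotype. Points are libraries, horizontal lines are means and error bars are SD. The small-subunit share is 9.80% in RpS15 discs on average and 12.6% to 13.7% in the other mutant genotypes, against 13.1% in WT discs.

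Other genes of the ribosome and its assembly were taken as fixed lists. Their counts stand beside the shares of all genes tested given above, with 14.4% of rises in RpS3 discs, 16.5% in RpS3* discs, 12.1% in RpS15 discs, 9.33% in mahj discs and 21.5% in RpS3+puc relative to RpS3 discs, and with 8.99% of falls in RpS15 discs. Of 49 large-subunit genes tested, 39 fell and 0 rose in RpS15 discs with a median of −0.52, 2 rose and 0 fell in RpS3 discs, 1 rose and 1 fell in RpS3* discs, 0 passed the test in mahj discs, and 25 rose and 2 fell in RpS3+puc relative to RpS3 discs. Of 11 genes for 40S assembly factors and snoRNA-bound proteins tested, 9 rose in RpS3 discs with a median of 0.37 and 9 rose in RpS3* discs with a median of 0.37, against 1 rise in RpS15 discs and 1 in mahj discs, and none fell in these 4 comparisons. Fibrillarin (Fib), the methyltransferase of box C/D snoRNPs, was among those that did not pass, at 0.44 ± 0.19 in RpS3 discs (adjusted p = 0.16) and 0.46 ± 0.19 in RpS3* discs (adjusted p = 0.11). In RpS3+puc relative to RpS3 discs 2 of these 11 genes rose, Fib among them, and 2 fell, with a median of −0.13. Of all genes tested there, 25.1% fell. Of 24 mitochondrial small-subunit genes, which serve the ribosome of the mitochondrion, 4 rose in RpS3 discs and 8 in RpS3* discs, 4 fell in RpS15 discs, 0 passed in mahj discs and 17 rose in RpS3+puc relative to RpS3 discs, and the count in RpS3 discs was near the background. Xrp1, a transcription factor needed for much of the response to Minute mutations, rose by 1.42 ± 0.11 in RpS3 discs (adjusted p = 5.5e-06), 1.59 ± 0.11 in RpS3* discs (adjusted p = 1.2e-06) and 1.31 ± 0.12 in mahj discs (adjusted p = 1.1e-05), and fell by 1.54 ± 0.11 in RpS15 discs (adjusted p = 5.3e-06). In RpS3+puc discs Xrp1 was higher than in WT by 1.02 ± 0.10 (adjusted p = 6.0e-06) and lower than in RpS3 discs, at −0.41 ± 0.09 (adjusted p = 0.011). Myc, which drives ribosome synthesis, averaged 17.3 FPKM in RpS3+puc discs, against 33.7 FPKM in RpS3 discs and 46.3 FPKM in WT discs. It fell by 0.95 ± 0.20 relative to RpS3 discs (adjusted p = 0.012) and by 1.36 ± 0.23 relative to WT (adjusted p = 0.00072). Myc did not pass the test against WT in RpS3 (−0.41 ± 0.25), RpS3* (−0.48 ± 0.25), RpS15 (0.29 ± 0.25) or mahj discs (0.36 ± 0.25). Tif-IA, from the same list as Xrp1 and Myc, rose by 0.30 ± 0.10 in RpS15 discs (adjusted p = 0.070). It did not pass the test against WT in any other genotype.

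Fold changes in these libraries went with transcript length, and the members are short, so the change of other short genes is given beside theirs. For non-ribosomal genes with transcripts under 1000 bp the median change was 0.23 in RpS3 discs (1310 genes), 0.23 in RpS3* discs (1317), −0.21 in RpS15 discs (1351) and −0.09 in mahj discs (1345), each against WT, and 0.23 in RpS3+puc relative to RpS3 discs (1258). The members' medians were lower than those of the short genes in RpS3, RpS3* and RpS15 discs, at 0.01, 0.04 and −0.58. They were higher than those of the short genes in mahj discs, at 0.01 relative to WT and at 0.04 relative to both RpS3 alleles, where the short genes had −0.31. In RpS3+puc relative to RpS3 discs both medians were 0.23. In that comparison the large-subunit genes had a median of 0.19 and the mitochondrial small-subunit genes 0.28, also near that of the short genes. Relative to WT, RpS3+puc discs had a median of 0.25 for the members and 0.44 for the short genes. For RpS15 discs relative to both RpS3 alleles the medians were −0.61 for the members and −0.44 for the short genes. What makes short genes differ between these libraries was not tested.

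**Figure D5:**
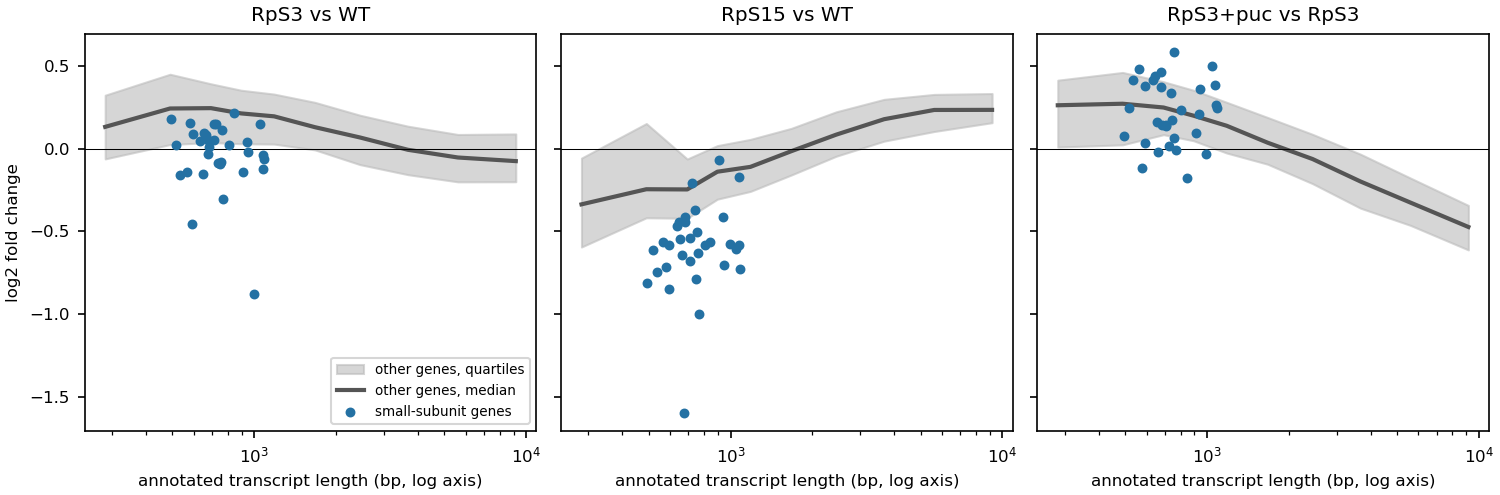
Log2 fold change against annotated transcript length (bp, log axis) in 3 comparisons. Blue points are the 32 abundant members, and the grey line and band are the median and quartiles of non-ribosomal genes in bins of length. In RpS15 relative to WT discs the members lie mostly below the band of equally short genes, and in RpS3+puc relative to RpS3 discs the members tested and the other genes under 1000 bp both have a median of 0.23.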

How the data were processed

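The authors deposited 1 FPKM value per gene and library, which was not rescaled. The submitters' processing notes name BWA 0.6.2 and the genome build dm3, and the counting and normalization tools are not given in the sources used here. As evidence for the unit, values of 6779 genes that have only 1 annotated transcript were whole multiples of the worth of 1 read in 97.2% to 97.8% of cases per library (tolerance 0.02). RPKM would look the same. The 25 samples of the labels are 19 libraries, since 6 libraries had 2 pooled runs (the header for WT1 names only run 1). No column was left unused.

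Values on the scale of log2(FPKM + 1) were fitted in limma 3.58.1 (statmod 1.5.0, R 4.3.3) with trend and robust options, holding the compared groups only. A gene needed 1 FPKM or more in 2 or more libraries of the fit. Calls were made at an adjusted p under 0.1 (Benjamini-Hochberg, over all genes tested). Of the members, 34 passed the filter on low values (33 in RpS3+puc relative to RpS3 discs), and RpS10a, RpS28a and RpS28-like did not. The results of 2 members are not reported here by name, though counts, medians and sums over the members include them. The scripts were tested on simulated data. Gene identifiers were matched to FlyBase symbols and BDGP6.54, which holds 13661 of the 13955. Values per library are given for RpS3, RpS15 and, in each comparison, up to 3 members with the largest rise and fall past the threshold whose libraries do not overlap, and for copies. Members and lists were chosen with earlier results of these data known. The alternatives were a pseudocount of 0.1, an adjusted p under 0.05, no filter, all libraries in a single fit, median-of-ratios scaling, a trend over length removed (lowess span 0.3), the replicate number as a block, other WT libraries, and leaving out each library.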

Additional observations from a re-analysis of the deposited data

Results flagged for a closer look

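In the WT group of 8 libraries, 4 of the members reported had a value that stood far from the other 7 by Dixon's test, and in every case it was that of WT6, the highest. RpS18 had 4545 FPKM in WT6, against 2750 to 3476 FPKM in the other WT libraries. RpS27A had 5527 FPKM, against 3859 to 4607 FPKM. RpS28b had 2922 FPKM, against 2085 to 2461 FPKM, and RpS29 had 4245 FPKM, against 2835 to 3408 FPKM. Chance would single out about 1 in 20 of the 40 such groups of values tested if they were independent. The 4 values come from the same library, so they do not count as 4 separate events. WT6 had the highest WT value for 23 of the 32 abundant members, a count with no share over all genes beside it.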

How the results depend on the processing

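The falls of RpS3 in RpS3, RpS3* and RpS3+puc discs and of RpS15 in RpS15 discs kept their direction and their call under every alternative run. The number of members past the threshold was less stable, and the counts under other settings have no share of all genes beside them. For RpS3 discs it was 2, and became 10 with the length trend removed, 14 with the replicate number as a block (12 rises and 2 falls) and 5 without WT6 and WT7 (chosen after seeing the data). For RpS3* discs it was 3, and became 5 with all 19 libraries in a single fit, 11 with the length trend removed, 22 with the replicate block (18 rises and 4 falls) and 10 without WT6 and WT7. For mahj discs it was 1, and became 2 with all libraries in a single fit, 2 with median-of-ratios scaling, 6 with the length trend removed, 15 with the replicate block (14 rises and 1 fall), 0 with the FRT82 ubi-GFP WT libraries only, 16 with WT1 and WT2 only and 5 without WT6 and WT7. For RpS3+puc relative to RpS3 discs it was 19, and became 11 in the single fit. For RpS3+puc relative to WT it was 17, and became 27 with the replicate block (26 rises and 1 fall), 7 with the FRT82 ubi-GFP WT libraries only and 27 without WT6 and WT7. For mahj relative to both RpS3 alleles it was 13, and became 4 in the single fit and 29 with the length trend removed. The causes were not tested, but the block keeps only the WT libraries that share replicate numbers.

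With 1 library left out at a time, the count ranged from 1 to 2 in RpS3, 1 to 6 in RpS3*, 4 to 29 in RpS15, 0 to 2 in mahj and 8 to 23 in RpS3+puc discs, all against WT, from 3 to 24 in RpS3+puc relative to RpS3 discs, from 31 to 32 in RpS15 and from 8 to 14 in mahj discs relative to both RpS3 alleles. Where 1 library was left in a genotype, it was assumed to vary like the other groups.

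The change of RpS15 in RpS3, RpS3* and mahj discs had no fixed sign. In RpS3 discs it was 0.16 with the replicate block, 0.0139 with yw WT libraries only and 0.0684 without WT6 and WT7, and in RpS3* discs 0.15 with the block and 0.0503 without WT6 and WT7. In mahj discs it was 0.0430 with the length trend removed, 0.15 with the block, 0.0004 with yw WT libraries only, 0.15 with WT1 and WT2 only and 0.0549 without WT6 and WT7. In RpS3+puc discs relative to WT it was 0.33 in the main setting and 0.237 to 0.391 with 1 library left out, but −0.12 with the length trend removed. Relative to both RpS3 alleles, mahj discs had 0.0796 with median-of-ratios scaling and 0.31 with the length trend removed, where RpS15Ab came to 0.0012, RpS13 to 0.11 and RpS26 to 0.0166. Leaving out 1 library gave −0.0713 to 0.0219 for RpS15 in RpS3, −0.0905 to 0.0038 in RpS3*, −0.0847 to 0.0084 in mahj and −0.0234 to 0.0145 in mahj relative to both alleles. RpS3 in mahj discs was −0.0301 with the FRT82 ubi-GFP WT libraries only. With the sum of the other members in place of their median, RpS3 relative to them differed from WT by −0.93 in RpS3*, −0.0048 in RpS15, 0.0576 in mahj and −1.12 in RpS3+puc discs (log2).

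Replicate numbers were not taken to pair the samples: the labels state no pairing, only RpS3+puc and WT share more than 2 numbers, and the signs were mixed. Differences between the first and the second library correlated across 7203 genes with those of WT at −0.05 in RpS3, −0.23 in RpS3*, 0.17 in RpS15, 0.19 in mahj and 0.10 in RpS3+puc, and between mutant genotypes at −0.36 (mahj and RpS3*) to 0.22 (mahj and RpS3).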
